A study of Mus musculus with 8 samples.

Results

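The epithelial sodium channel, ENaC, is described here through 7 genes: its subunit genes Scnn1a (alpha), Scnn1b (beta) and Scnn1g (gamma), the protease genes Furin, Prss8 and St14, and Nedd4l, a ubiquitin ligase gene. Probe sets whose annotation named exactly 1 gene symbol were searched for these symbols, and each of the 7 genes had 1 such probe set, out of 19938 genes named in this way. The values are log2 RMA expression values from 1-colour Affymetrix arrays of total RNA from dissected renal cortex, with 1 array per mouse by the labels. The WT group holds 4 male C57Bl6J mice of 10 weeks, wild type for Stk39. The SPAK KO group holds 4 male littermates of the same strain and age that lack SPAK, the kinase encoded by Stk39. Both groups ate a diet of 0.32% NaCl and 1% KCl. According to its design text, the study looked for genes that may act together against renal salt loss when SPAK is missing. The labels give neither the disrupted stretch of Stk39 nor a promoter that would limit the loss to 1 cell type.

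ENaC is the channel through which principal cells and cells of the connecting and late distal tubule take up sodium at the luminal side. It assembles from alpha, beta and gamma subunits. Furin cuts the alpha and gamma subunits in the Golgi, and prostasin, the product of Prss8, is linked to a further cut of gamma that raises the open probability of the channel. Matriptase, the product of St14, is a membrane protease that can activate prostasin. Nedd4-2, the product of Nedd4l, ubiquitinates the subunits through their PY motifs and removes the channel from the membrane. The kinase SGK1, which aldosterone induces, phosphorylates Nedd4-2 and so keeps ENaC at the surface.

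Stk39 was lower on all 4 SPAK KO arrays, at 6.79 to 7.21 against 8.11 to 8.60 on the WT arrays (log2 values, limma adjusted p = 5.8e-04). Some arrays agreed far more closely than others. Over 6297 genes with a mean above 8, the SD of the log2 difference between 2 arrays was 0.064 to 0.094 within SPAK KO (6 pairs) and 0.086 between WT 2 and WT 3, against 0.153 to 0.195 in the 5 other WT pairs. Between a WT and a SPAK KO array it was 0.159 to 0.222 (16 pairs), a range that overlaps that of the other WT pairs. Because of the close agreement, WT 2 and WT 3 enter the WT means ± SD as a single sample (n = 3). No SD between animals is given for SPAK KO. The differences, p-values and 95% intervals below come from the fit over all 8 arrays, unless another setting or test is named. These p-values and intervals measure the spread between the arrays, which in SPAK KO was as small as that between WT 2 and WT 3 and may be technical.

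The beta and gamma subunit genes are neighbours on mouse chromosome 7, with only the non-coding RNA gene Gm36848 between them in the RefSeq table of GRCm38.p6. The sequence before the start of each is shown. A link between these sequences and the differences between genotypes was not tested. RefSeq promoter windows, each of 300 bases from 250 before to 50 after a gene's start, were given for 3 of the 7 genes, Scnn1b, Scnn1g and Furin. Capitals mark matches to GGGCGG, the core of a GC box, or its reverse complement. The Scnn1g window lies at chr7:121734229-121734528 and the Scnn1b window at chr7:121864788-121865087, both on the plus strand of GRCm38.p6.
Scnn1g: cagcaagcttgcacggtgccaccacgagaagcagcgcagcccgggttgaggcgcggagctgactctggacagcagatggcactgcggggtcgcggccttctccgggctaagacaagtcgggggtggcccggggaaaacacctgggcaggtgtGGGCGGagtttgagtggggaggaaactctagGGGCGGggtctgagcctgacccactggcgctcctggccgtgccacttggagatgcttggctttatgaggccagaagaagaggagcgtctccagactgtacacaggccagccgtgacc
Scnn1b: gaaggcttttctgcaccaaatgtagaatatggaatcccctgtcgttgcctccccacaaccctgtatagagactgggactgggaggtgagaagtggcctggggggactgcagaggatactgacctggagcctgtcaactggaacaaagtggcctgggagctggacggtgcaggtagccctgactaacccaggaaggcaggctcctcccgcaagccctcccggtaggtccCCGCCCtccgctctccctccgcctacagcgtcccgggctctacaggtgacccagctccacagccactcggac
The Scnn1g window held 2 GC boxes, which began 98 and 67 bases before the start, and the Scnn1b window held 1, which began 22 bases before it. A GC box on either strand was found in 35.7% of the 32851 windows of this length. The windows were 64.7% and 61.7% G or C, against a median of 52.7% over all windows. Neither held AGAACA, a core bound by steroid receptors (19.0% of all windows on either strand), CACGTG, an E-box (7.15%), TATAAA (13.6%) or CCAAT (37.4%). No 2 of these letter strings overlapped in the windows shown. These matches describe the printed letters only.

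Among the subunits, the beta and alpha transcripts read higher in SPAK KO than in WT on every array, and the gamma transcript did not. Beta passed the test over all genes and alpha did not. Scnn1b (probe set 10557124) read 9.65, 9.75, 9.75 and 9.81 for WT 1 to 4, and 10.10, 9.98, 9.98 and 10.02 for SPAK KO 1 to 4. All 4 SPAK KO arrays lay above all WT arrays, with WT 1 the lowest and SPAK KO 1 the highest. The WT level was 9.73 ± 0.08 (SD, n = 3). The difference, SPAK KO minus WT, was 0.28 ± 0.05 on the log2 scale (SE, 8 arrays), or 1.21-fold, with a 95% interval of 0.16 to 0.40 (limma adjusted p = 0.0269).

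Scnn1a (probe set 10541885), which codes for the alpha subunit that the channel needs to reach the membrane, read 10.27, 10.39, 10.48 and 10.54 for WT 1 to 4, and 10.69, 10.62, 10.65 and 10.72 for SPAK KO 1 to 4. The groups again did not overlap, and WT 4 came closest to the SPAK KO arrays. With a WT level of 10.42 ± 0.14 (SD, n = 3), the difference was 0.25 ± 0.06 (SE, 8 arrays; 1.19-fold; 95% interval 0.10 to 0.39). It did not pass (limma adjusted p = 0.0861).

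Scnn1g (probe set 10557111), the gene of the gamma subunit, read 10.16, 10.25, 10.25 and 10.48 for WT 1 to 4, and 10.29, 10.32, 10.31 and 10.40 for SPAK KO 1 to 4. WT 1, WT 2 and WT 3 lay below every SPAK KO array and WT 4 above all of them, so the overlap came from WT 4. Its difference was 0.05 ± 0.07 (SE, 8 arrays; 95% interval -0.11 to 0.20; limma adjusted p = 0.742), from a mean of 10.28 over the 4 WT arrays. With WT 2 and WT 3 as a single sample the WT level was 10.29 ± 0.16 (SD, n = 3). A rise of gamma of up to 0.20 lies inside the 95% interval. Without WT 4 the difference was 0.11 (adjusted p = 0.269) and without WT 1 it was 0.0051 (adjusted p = 0.978).

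**Figure D1:**
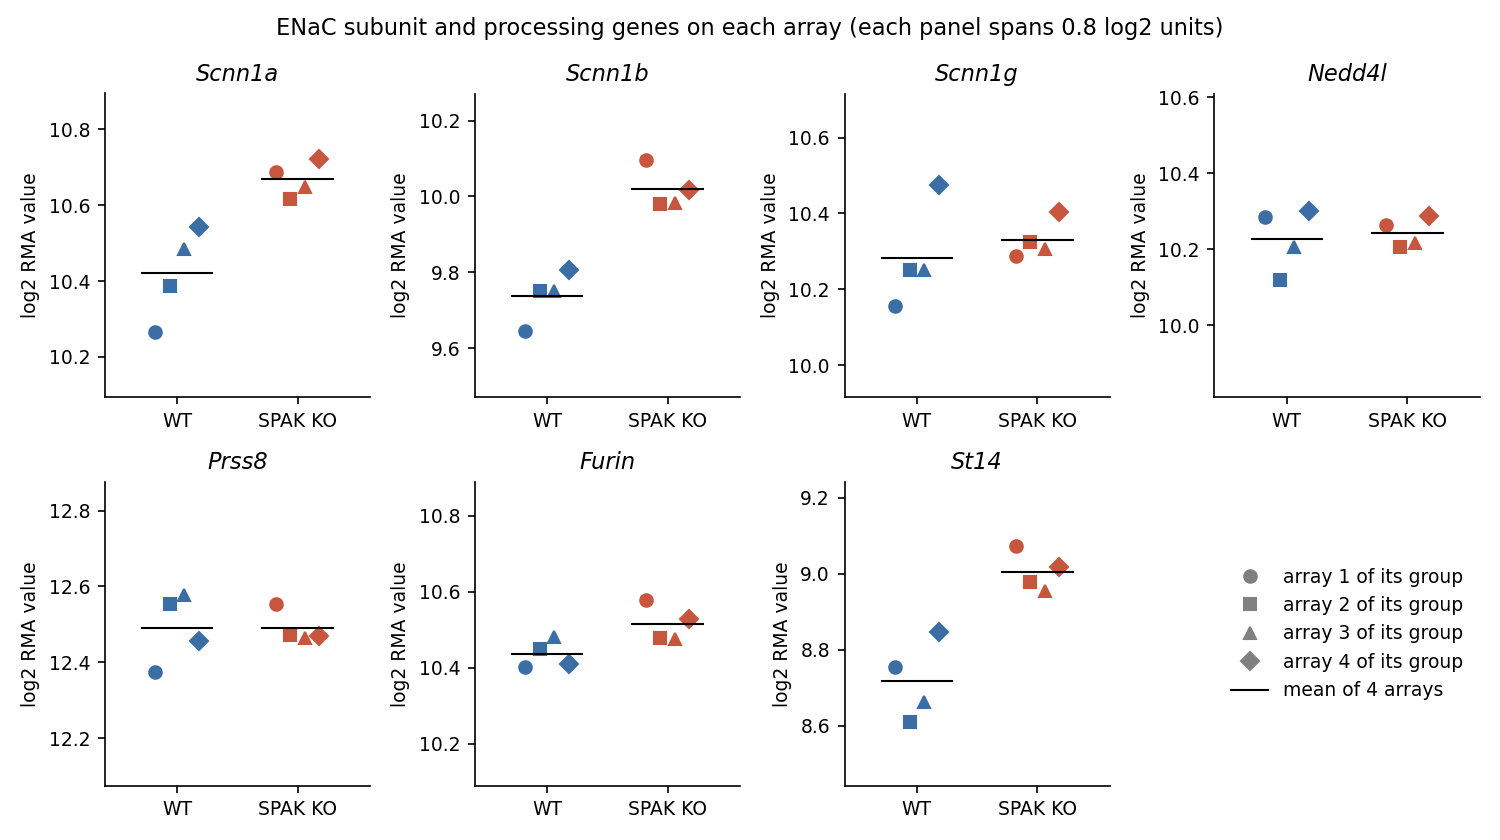
Log2 RMA values (vertical axis, each panel 0.8 log2 units high) of the 7 genes on each WT (blue) and SPAK KO (red) array, with the mean of 4 arrays as a line and the array number as the marker shape. Scnn1a, Scnn1b and St14 show no overlap between the groups; the other 4 genes overlap.

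The subunit transcripts were also compared with each other within each array, where a shift of a whole array cancels. The direction of the changes was known from earlier results of these data when these tests were chosen. Their p-values are therefore not independent support. A level difference between probe sets of different genes has no meaning in itself, so only its change between genotypes is read. Scnn1g minus Scnn1b was 0.51, 0.4985, 0.501 and 0.67 for WT 1 to 4, and 0.19, 0.35, 0.32 and 0.39 for SPAK KO 1 to 4. The groups did not overlap, and WT 4 stood above the other WT arrays. The gamma transcript was lower relative to beta by a change of -0.23 in SPAK KO (two-sided exact permutation test over 8 arrays, p = 0.0286, the smallest that 4 against 4 allows; Benjamini-Hochberg adjusted over the 3 subunit pairs, p = 0.0429).

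Scnn1g minus Scnn1a was -0.11, -0.14, -0.23 and -0.07 for WT 1 to 4, and -0.40, -0.29, -0.34 and -0.32 for SPAK KO 1 to 4. Here too the groups did not overlap, with WT 3 nearest to the SPAK KO arrays. The change was -0.20 (exact permutation p = 0.0286, adjusted p = 0.0429). For Scnn1b minus Scnn1a the arrays read -0.74 to -0.62 in WT and -0.70 to -0.59 in SPAK KO, and the groups overlapped. That change was 0.03 (exact permutation p = 0.486, adjusted p = 0.486). With every array counted, the gamma transcript differed from alpha and beta in its change. No difference in change between alpha and beta was detectable. The pairs are built from the same 3 transcripts, so their tests are not independent of each other. With arrays that agree counted once there are 3 WT samples and 1 SPAK KO sample. The changes of gamma were then -0.25 against beta and -0.22 against alpha, and the exact permutation p was 0.25 for both, the smallest that this count allows. Leaving out any 1 SPAK KO array gave an adjusted p of 0.0857 for both changes, with changes of at least 0.18 in size.

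**Figure D2:**
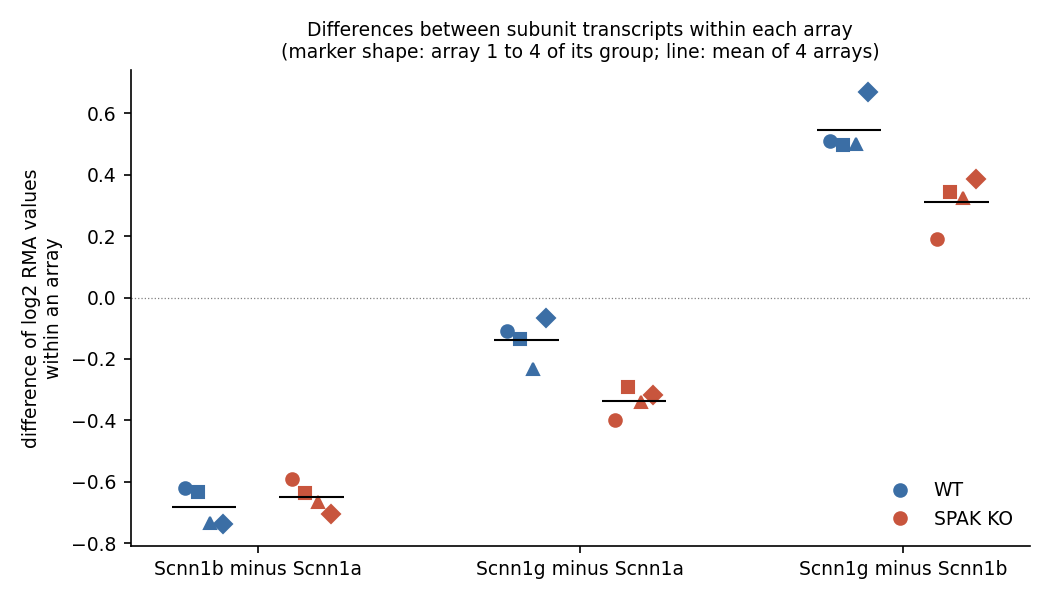
Difference of log2 RMA values between pairs of subunit transcripts within each array (vertical axis), for WT (blue) and SPAK KO (red), with the mean of 4 arrays as a line. Scnn1g lies lower against Scnn1b and Scnn1a on all SPAK KO arrays, and Scnn1b minus Scnn1a overlaps between the groups.

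Of the 3 protease genes, St14 was higher in SPAK KO and Furin and Prss8 did not pass. St14 (probe set 10592001) read 8.75, 8.61, 8.66 and 8.85 for WT 1 to 4, and 9.07, 8.98, 8.95 and 9.02 for SPAK KO 1 to 4. The lowest SPAK KO array, SPAK KO 3, lay above the highest WT array, WT 4. The difference was 0.29 ± 0.06 (SE, 8 arrays; 1.22-fold; 95% interval 0.15 to 0.42; limma adjusted p = 0.0439), from a mean of 8.72 over the 4 WT arrays. With WT 2 and WT 3 as a single sample the WT level was 8.75 ± 0.11 (SD, n = 3), and the difference 0.26.

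Furin (probe set 10564960), the proprotein convertase gene, read 10.40, 10.45, 10.48 and 10.41 for WT 1 to 4, and 10.58, 10.48, 10.48 and 10.53 for SPAK KO 1 to 4. WT 3 lay above SPAK KO 2 and SPAK KO 3, so the groups overlapped by little. The difference of 0.08 ± 0.05 (SE, 8 arrays; 95% interval -0.03 to 0.19) did not pass (limma adjusted p = 0.389).

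Prss8 (probe set 10568332), the prostasin gene, read 12.37, 12.55, 12.58 and 12.46 for WT 1 to 4, and 12.55, 12.47, 12.46 and 12.47 for SPAK KO 1 to 4. The WT arrays lay on both sides of the SPAK KO arrays. The difference was 0.00015 ± 0.06 (SE, 8 arrays; 95% interval -0.13 to 0.13; limma adjusted p = 0.999). In the RefSeq table Prss8 overlaps its neighbour Kat8, and the end of Scnn1g overlaps Gm36848. The positions of the probes were not used here, and both probe sets name no other gene.

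Nedd4l (probe set 10456254), whose product takes ENaC from the membrane, read 10.29, 10.12, 10.21 and 10.30 for WT 1 to 4, and 10.26, 10.21, 10.22 and 10.29 for SPAK KO 1 to 4. All SPAK KO arrays lay inside the WT range. The difference was 0.02 ± 0.05 (SE, 8 arrays; 95% interval -0.11 to 0.14; limma adjusted p = 0.898). The signs of the Prss8 and Nedd4l differences have no weight, since both turned negative with quantile normalization applied again and with cyclic loess.

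In all, 2 of the 7 genes were higher, Scnn1b and St14, and 0 lower, where 1.39% of all 19938 genes were called higher and 0.682% lower. With 3 of 7, Scnn1a, Scnn1b and St14, the SPAK KO arrays lay above all WT arrays, against 6.9% of all genes. The median difference of the 7 genes was 0.08, and that of all genes was -0.01. The median size of a difference over all genes was also 0.08, so the difference of Furin had the size of a typical gene's, and those of Scnn1g, Nedd4l and Prss8 were smaller. The differences of Scnn1a, Scnn1b and St14 lay between 1.19-fold and 1.22-fold.

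Both calls depended on which arrays were counted, and that of St14 on the scaling too. St14 did not pass with quantile normalization applied again (limma adjusted p = 0.0661) or with cyclic loess (0.0640), where Scnn1b did (0.0264 and 0.0297). Leaving out 1 array at a time, Scnn1b passed in 2 of 8 fits, without WT 1 or WT 4, and St14 in 1, without WT 4. Scnn1a passed in 1 of the 8, also without WT 4 (limma adjusted p = 0.0460). With WT 2 and WT 3 averaged, the adjusted p was 0.0609 for Scnn1b and 0.0985 for St14. When arrays that agree were counted once, limma passed 0 of 19938 genes, and 618 had an unadjusted p under 0.05. In that fit the unadjusted p was 0.0389 for Scnn1b, 0.0677 for St14 and 0.101 for Scnn1a. The sizes hardly moved, at 0.29, 0.26 and 0.25.

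**Figure D3:**
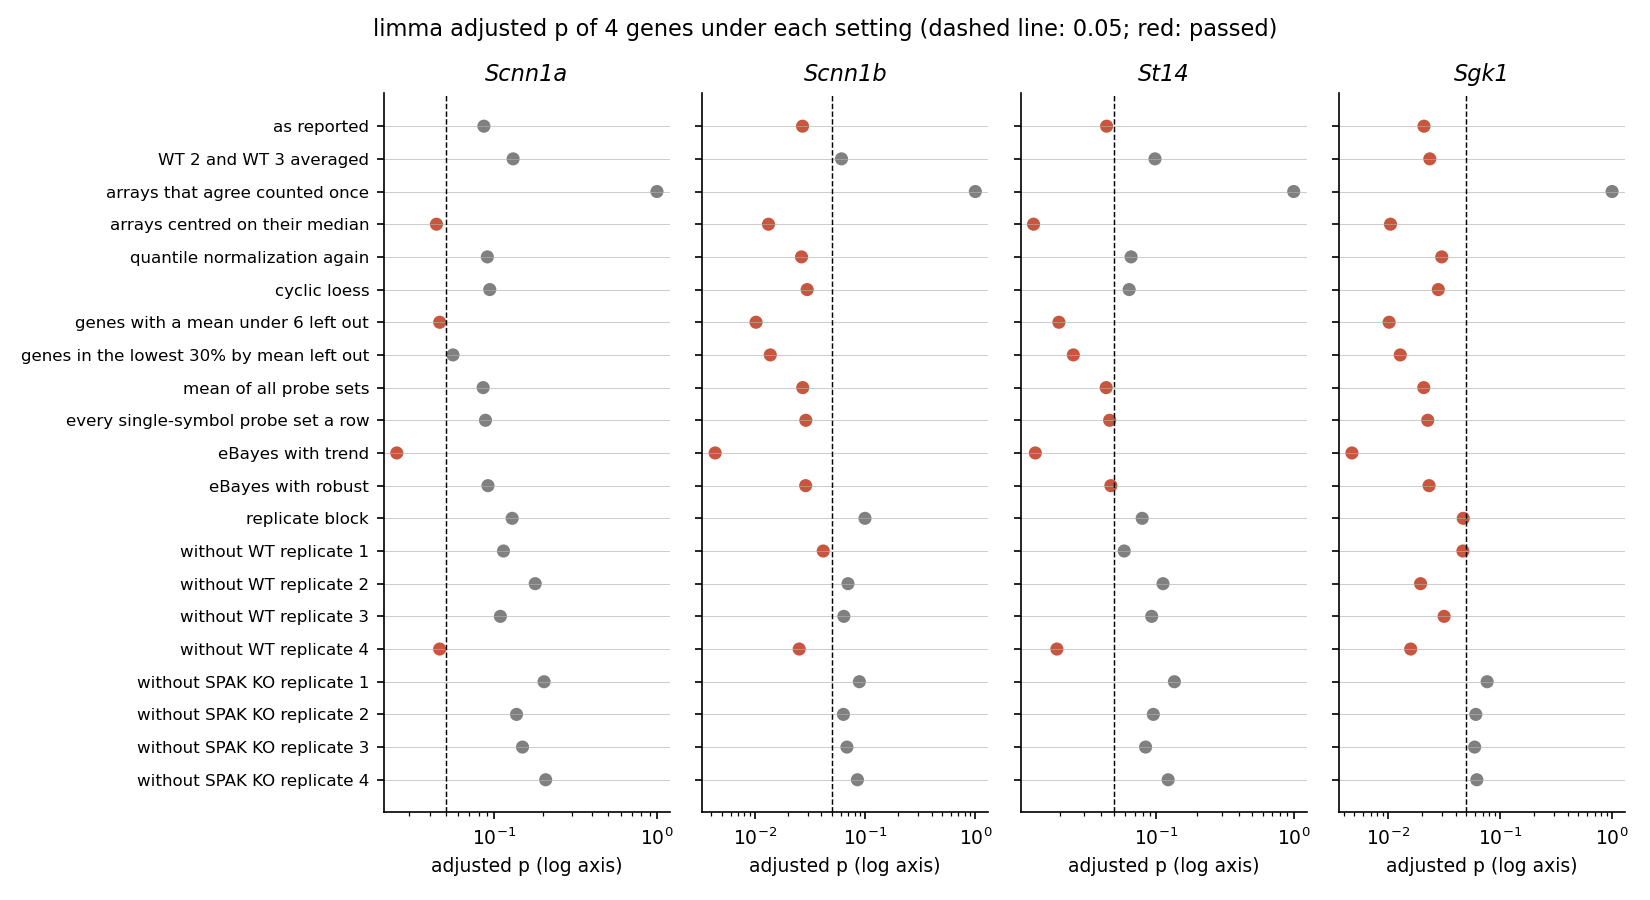
Adjusted p of the limma fit (horizontal log axis) for Scnn1a, Scnn1b, St14 and Sgk1 under each way of counting and scaling the arrays, with red points below the dashed line at 0.05. Of 20 settings besides the one reported, Scnn1a passed in 4, Scnn1b in 11, St14 in 8 and Sgk1 in 15.

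Markers of the cells that carry ENaC also read differently in the groups, in part. In bulk cortex, more cells of a type and more RNA per cell cannot be told apart. The summed linear level of 5 measured markers of the late distal and connecting tubule ranged from 13589 to 14688 in WT and from 15048 to 15539 in SPAK KO, without overlap. Of these, S100g, a calcium-binding protein gene, was higher by 0.35 ± 0.06 (limma adjusted p = 0.0169), 0 were lower and 4 did not pass. Calb1, the calbindin gene, lay in the other direction at -0.21 ± 0.08 (adjusted p = 0.2196) and was named after its values were seen. Without S100g the sums overlapped, at 8345 to 9962 in WT and 9084 to 9542 in SPAK KO. The sum of 8 principal cell markers ranged from 6629 to 7228 in WT and from 7283 to 7435 in SPAK KO. Without Hsd11b2, which is in both lists, these sums overlapped too, at 3857 to 4078 and 3970.3 to 4038. The mean log2 value of the 8 also overlapped, at 8.72 to 8.81 and 8.76 to 8.82. Of those 8, the water channel genes Aqp2 and Aqp4 were lower by -0.29 ± 0.06 and -0.35 ± 0.07 (limma adjusted p = 0.0447 and 0.0439), and 0 were higher. Over all genes 0.682% were called lower. Aqp4 was dim, with a mean of 5.38. The list had no single direction: in 2 of the 8, Aqp3 and Hsd11b2, the SPAK KO arrays lay above all WT arrays, against 6.9% of all genes. Aqp3, named after its values were seen, differed by 0.23 ± 0.06 (limma adjusted p = 0.0761). Array values carry no detection call, so no marker can be said to be at 0.

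Set against the mean log2 value of the 12 different markers in these lists, Scnn1b lay 0.21 to 0.27 above it in WT and 0.45 to 0.54 above it in SPAK KO, a difference of 0.24 between genotypes with no overlap. On this relative scale Scnn1a differed by 0.20 and St14 by 0.24, also without overlap, and Scnn1g by 0.0028, with overlap. The marker mean itself differed by 0.04, from 9.43 to 9.54 in WT to 9.52 to 9.56 in SPAK KO, with overlap. It averages markers that lay in opposite directions, such as S100g (0.35) and Aqp2 (-0.29), so it does not measure cell content. This relative scale was chosen after the values were seen and was given no test.

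Other segments also differed between the groups. Over all genes 1.39% were called higher and 0.682% lower. Of 9 intercalated cell markers 6 were higher, and their sum ranged from 7928 to 8984 in WT and 10138 to 10574 in SPAK KO. Of 6 thick ascending limb markers 2 were higher, with sums of 11391 to 11449 and 12495 to 12800. In the early distal convoluted tubule 2 of 6 markers were lower, and the sums, 11082 to 12399 in WT and 10847 to 11234 in SPAK KO, overlapped. Such sums weigh the brightest markers most. The mean log2 values of these 6 did not overlap, at 9.99 to 10.10 and 9.67 to 9.76. Proximal tubule markers, 8 in number, had 1 higher and sums of 47041 to 48775 against 49336 to 49497. Markers in the other direction included Slc4a1 of the intercalated cell (-0.15 ± 0.11) and Egf of the early distal convoluted tubule (0.19 ± 0.07). Slc5a2 of the proximal tubule (-0.17 ± 0.07) was a further one. None of these passed, and all were named after their values were seen. Among 31 further markers measured for medulla, podocyte, endothelium, immune cell, stroma, perirenal fat and adrenal gland, 1 was higher and 1 was lower. The higher one, Aqp1, named after its values were seen, is the higher proximal tubule marker as well. The part of these shifts in the differences of Scnn1a, Scnn1b and St14 was not tested.

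The wider ENaC pathway was followed with 44 genes, of which 40 had a probe set annotated to them alone. Sgk1 was higher, 0 were lower and 39 did not pass, where 1.39% of all genes were called higher and 0.682% lower. A count of 1 among 40 says little about the pathway as a whole. Their median difference was 0.05, and in 7 of the 40 the SPAK KO arrays lay above all WT arrays, against 6.9% of all genes. Asic1 alone lay below them on every SPAK KO array, against 5.71% of all genes. Its gap was narrow, with a highest SPAK KO value of 5.862 and a lowest WT value of 5.865.

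Sgk1, the kinase that restrains Nedd4-2, read 8.25, 8.51, 8.46 and 8.07 for WT 1 to 4, and 8.86, 8.84, 8.81 and 8.80 for SPAK KO 1 to 4. Every SPAK KO array lay above WT 2, the highest WT array, and WT 4 was the lowest. The difference was 0.504 ± 0.09 (SE, 8 arrays; 1.42-fold; limma adjusted p = 0.0209). It passed in the 4 fits that left out a WT array and in 0 of the 4 that left out a SPAK KO array. In the group of 17 measured genes for retention at the surface and the ubiquitin cycle, Sgk1 was the 1 gene called. The groups did not overlap in 3 more, which were named after their values were seen. Tsc22d3, the gene of the steroid-induced protein GILZ, differed by 0.42 ± 0.11 and Cnksr3, a scaffold gene of the SGK1 and Nedd4-2 complex, by 0.21 ± 0.05 (limma adjusted p = 0.0754 and 0.0522). Wwp2, a ligase gene of the Nedd4 family, differed by 0.13 ± 0.06 (adjusted p = 0.257). The closest relative of Nedd4l in the list, Nedd4, gave 0.06 ± 0.05, and the deubiquitinase gene Usp2 gave 0.175 ± 0.10 (adjusted p = 0.518 and 0.354). Both were also named after their values were seen.

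Of 8 other protease genes linked to ENaC cleavage, 0 were called by limma and 2 had an unadjusted p under 0.05, which 19.1% of all genes had. Tmprss2, a membrane serine protease gene, had the smallest p, with 10.13 to 10.22 in WT and 10.34 to 10.41 in SPAK KO. Its difference was 0.19 ± 0.05 (limma adjusted p = 0.0655), and its groups did not overlap. The second was Tmprss4, at -0.20 ± 0.08 (adjusted p = 0.214), named after its values were seen. Tmprss4 was dim, with a mean of 5.77. Of the protease inhibitor genes, Spint1 and Spint2 were measured and 0 of the 2 were called (0 with an unadjusted p under 0.05). Spint1, whose product inhibits matriptase, gave 0.12 ± 0.06 (95% interval -0.0081 to 0.24; adjusted p = 0.294).

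Of 5 genes of steroid receptors and transcription regulators of ENaC, 0 were called by limma. An unadjusted p under 0.05 was found for 3, and for 19.1% of all genes. They were Hsd11b2, Nr3c2 (0.24 ± 0.09, limma adjusted p = 0.180) and Mllt3 (0.13 ± 0.05, limma adjusted p = 0.183). Nr3c2 and Mllt3 were named after their values were seen. Hsd11b2, whose product protects the mineralocorticoid receptor from glucocorticoids, gave 0.19 ± 0.05 (limma adjusted p = 0.105), with 11.44 to 11.63 in WT and 11.69 to 11.73 in SPAK KO. Of 3 transport partners in the same cells 0 were called and 0 had an unadjusted p under 0.05. The smallest p was that of Kcnma1, a potassium channel gene, with 0.101 ± 0.07 (adjusted p = 0.463). Kcnma1 was dim, with a mean of 5.76. Of 5 genes of the acid-sensing channels, which belong to the same channel superfamily, 0 were called. An unadjusted p under 0.05 was found for 1, against 19.1% of all genes. It was Asic1, at -0.14 ± 0.06 (limma adjusted p = 0.244), which was dim, with a mean of 5.88.

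**Figure D4:**
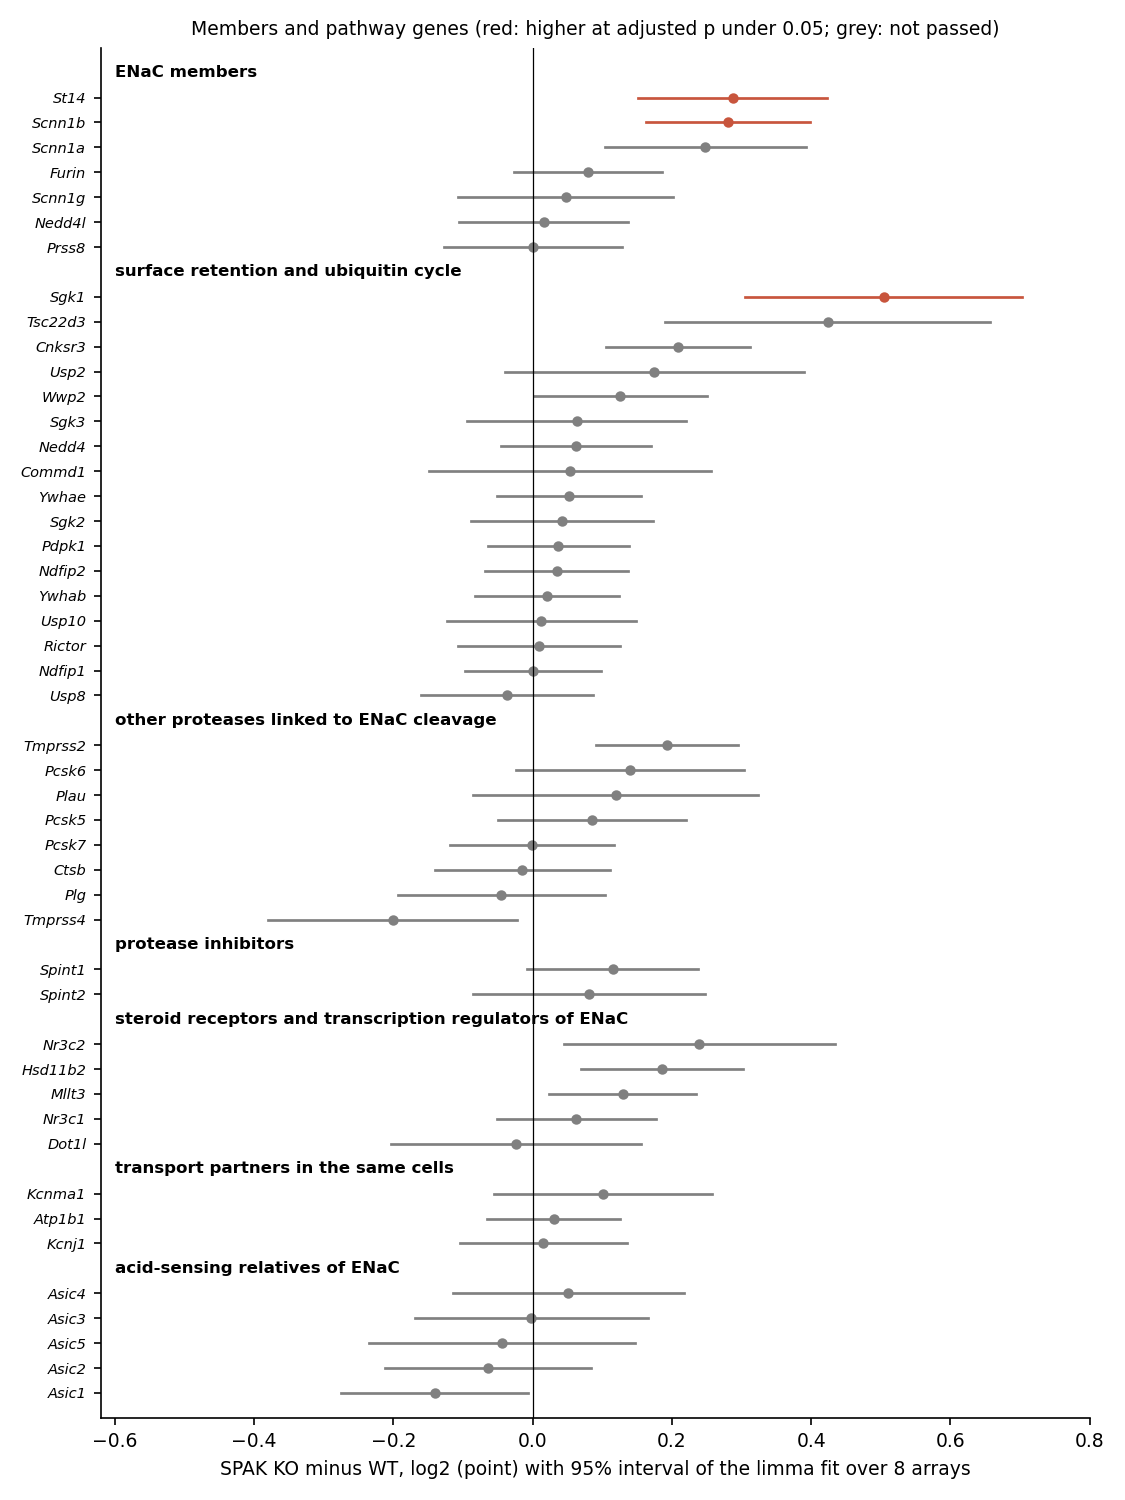
Difference between SPAK KO and WT on the log2 scale (horizontal axis) of the 7 ENaC genes and 40 pathway genes, as points with the 95% interval of the limma fit over 8 arrays. Scnn1b, St14 and Sgk1 passed the test over all genes (red) and no gene shown was called lower.

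Genes with the most similar pattern were sought among the other 19931 genes by the root mean square difference over the 8 arrays, after each gene was centred on its mean. Nearest to Scnn1b were Glo1, Zbed3 and Rap1gap, at 0.019 to 0.027. Their genotype differences were 0.26, 0.29 and 0.28, and Glo1 and Zbed3 were called (limma adjusted p = 0.0253 and 0.0365). Nearest to Scnn1a were Acyp2, Odr4 and Chrac1, at 0.024 to 0.025. Nearest to Scnn1g were Il13ra1, Robo2 and Ubr1, at 0.027 to 0.029. The SD over the 8 arrays was 0.16 for Scnn1a, 0.16 for Scnn1b and 0.098 for Scnn1g, so a small distance to Scnn1g asks for less. Among the 7 genes themselves, Scnn1a and Scnn1b were the closest pair, at 0.051, and Furin and Prss8 followed at 0.056. St14 lay 0.071 from Scnn1b, and Prss8 and St14 were the farthest pair, at 0.18. These distances describe the arrays and were given no test.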

How the data were processed

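By the labels, renal cortex RNA of 8 mice was measured on 1 array each. The authors deposited log2 values, 1 for each of 35556 probe sets, with 0 missing. Per the submitters' processing notes, Affymetrix Expression Console and its RMA method were used, which correct for background, bring arrays to a common distribution and combine the probes of a set. Versions and the genome build are not given in the sources used here. Of these, 21789 carried exactly 1 gene symbol, 1621 several and 12146 none. Only the first kind was named, and a gene with several took the one of highest mean across the 8 arrays.

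All 19938 genes entered 1 fit in R 4.3.3, by lmFit and eBayes of limma 3.58.1 with neither trend nor robust, on genotype alone. A gene was called at a Benjamini-Hochberg adjusted p under 0.05 over all genes. The procedure was tested on simulated data. Depth does not apply to arrays, and the number of separate RNA samples limits precision. Intervals have a confidence level of 95%. Changes between subunit transcripts were tested by two-sided exact permutation over arrays.

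The 7 members, the gene lists, the tests and the alternatives were chosen with earlier results of these data known. Genes were named by rule: all members, Stk39, the called genes of each pathway list (at most 4 by size) or else its gene with the smallest p, the called principal cell and connecting tubule markers, and the 3 genes nearest to each subunit. Any other gene is marked as named after its values were seen. Of the 44 genes of the pathway lists, 4 are not analysed here. Alternatives were other ways of counting and scaling arrays, filters on dim genes, other uses of probe sets, trend and robust variances (statmod 1.5.0), a replicate block and leaving out each array. The labels name no batch.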

Additional observations from a re-analysis of the deposited data

Results flagged for a closer look

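In 2 of 20 groups of 4 arrays (the 7 genes and 3 subunit pairs in both genotypes) a single array stood apart from the others by Dixon's criterion at the 95% level. Chance alone gives about 1 in 20. Prss8 read 12.55 on SPAK KO 1, against 12.47 on the next highest SPAK KO array. Scnn1g minus Scnn1b was 0.67 on WT 4, against 0.51 on the next highest WT array. Without WT 4 the change of that pair was -0.19.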

How the results depend on the processing

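The 20 alternatives left 0 genes lower among the 7 members and the pathway genes. The number of members called higher was 2 as reported. It was 0 with WT 2 and WT 3 averaged, 0 with arrays that agree counted once, 1 with quantile normalization again, 1 with cyclic loess, 3 with arrays centred on their median, with means under 6 left out or with eBayes trend (Scnn1a added each time), and 0 to 3 when 1 array was left out. The number of pathway genes called higher, 1 as reported, was 0 with arrays that agree counted once, 3 with the lowest 30% of genes left out, 4 with means under 6 left out, 5 with arrays centred on their median, 5 with eBayes trend, and 0 to 3 when 1 array was left out. The calls over all genes moved as well. As reported, 278 of 19938 genes were higher. With arrays centred on their median 673 were, and with eBayes trend 527. It was 462 of 12001 with means under 6 left out and 398 of 13956 with the lowest 30% left out. When 1 array was left out it was 106 to 407. The medians of the deposited arrays over all probe sets did not overlap, at 6.13 to 6.19 in WT and 6.09 to 6.12 in SPAK KO. Over the named genes they overlapped, at 6.71 to 6.75 and 6.71 to 6.73. Centring on the medians over all probe sets adds 0.06 to every difference, and the filters leave 13956 or 12001 genes tested. Other causes were not tested. No clear pairing of arrays by replicate number was seen. Deviations of same-numbered arrays correlated by 0.07, 0.10, -0.07 and 0.19, and 2 of 4 WT arrays matched their own number best. This check cannot exclude a pairing, since the SPAK KO arrays varied so little. With the replicate block 0 members were called (limma adjusted p = 0.0994 for Scnn1b and 0.0795 for St14), the count of all genes went from 414 to 174 (129 higher and 45 lower), and the changes of -0.20 for Scnn1g minus Scnn1a and -0.23 for Scnn1g minus Scnn1b had an exact permutation adjusted p of 0.188, with 0.125 the smallest p possible. With arrays that agree counted once those changes were -0.22 and -0.25 (adjusted p = 0.375). When 1 array was left out they ranged from -0.23 to -0.18 and from -0.26 to -0.19. Nedd4l turned negative with WT 2 and WT 3 averaged (-0.0062), agreeing arrays counted once (-0.0062), quantile normalization (-0.017), cyclic loess (-0.016) and without 1 array (-0.021 to 0.040). Prss8 did so with quantile normalization (-0.0025), cyclic loess (-0.011) and without 1 array (-0.039 to 0.029). The differences of Scnn1a, Scnn1b, Scnn1g, Furin and St14 stayed above 0 in all 20. Adjusted p over the alternatives ranged from 0.0043 to 1.00 for Scnn1b and from 0.0129 to 1.00 for St14.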
